A study of Homo sapiens with 16 samples.

Results

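The changes that the arrays labelled with an siRNA against RECK (siRECK) had in common in Hs343T and Hs606T are described here, relative to the arrays labelled with a scrambled siRNA (siSCR). Of the 16 arrays of the series, 8 were used, 4 labelled siRECK and 4 labelled siSCR, chosen by line and siRNA label. All genes were tested, and the genes described are those that moved the same way in each line. The study concerns RECK in breast cancer cells, and its title names metastasis, STAT3 and a switch to new vessel growth. RNA levels were read on Affymetrix U133 2.0 arrays. Both lines are labelled as breast cancer cell lines and are called poorly invasive. Each of the 4 groups held 2 arrays, which are Hs343T with siSCR, Hs343T with siRECK, Hs606T with siSCR and Hs606T with siRECK. No siRNA sequence, dose or time after transfection is stated, and no untransfected group was used here. Whether the 2 arrays of a group stem from different cultures is not stated. The p-values below thus reflect the spread between those 2 arrays, and that spread may be technical.

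RECK is a membrane-anchored glycoprotein that inhibits several matrix metalloproteinases, the enzymes that cut the proteins of the extracellular matrix. Much of what follows concerns type I interferon signalling. Cells that detect foreign RNA through sensors such as RIGI and IFIH1 can make interferon beta, which binds a receptor on the same or on neighbouring cells. Kinases of the JAK family then carry the signal on, and a complex that holds IRF9 binds the interferon-stimulated response element in the promoters of antiviral genes. Interleukin 1, made as IL1A and IL1B, acts through another receptor and NF-kB, and induces chemokines and matrix metalloproteinases in stromal and tumour cells.

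Values are log2 levels, and differences are the mean of the arrays labelled siRECK minus the mean of those labelled siSCR in the same line. A gene passed at an adjusted p under 0.05 in limma. Array medians lay between 6.42 and 6.51, and the 2 arrays of a group correlated at 0.9969 to 0.9975 across probe sets. Between arms the correlation was 0.9716 to 0.9719 in Hs343T and 0.9951 to 0.9961 in Hs606T. Of 10 fibroblast markers, 8 lay above the upper quartile of every one of the 8 arrays, among them COL1A1, COL3A1, VIM and DCN. Of 13 epithelial markers, only KRT19 did, 8 lay below the median on all 8 arrays, and the defining markers CDH1 and ESRP1 lay below the lower quartile on all 8. None of 12 leukocyte and 7 endothelial markers lay above the upper quartile, and PTPRC and CDH5 lay below the lower quartile on all 8 arrays. The log2 summed level of the leukocyte list was 8.66 to 8.70 on the Hs343T siSCR arrays, 8.57 to 8.63 on Hs343T siRECK, 8.47 to 8.53 on Hs606T siSCR and 8.35 to 8.38 on Hs606T siRECK. The epithelial list read 11.38 to 11.39, 10.945 to 10.96, 11.26 to 11.28 and 11.59 to 11.68 in the same order of groups, so it was lower on siRECK in Hs343T and higher on siRECK in Hs606T. The part of these markers in the results below was not tested. The 3 prime minus 5 prime control reading, a sign of RNA quality, was higher on siRECK in Hs343T, at 0.36 and 0.39, then 0.43 and 0.48, for GAPDH and 1.55 and 1.49, then 1.56 and 1.60, for ACTB. In Hs606T the arms overlapped, at 0.24 and 0.30, then 0.26 and 0.255, for GAPDH and 1.16 and 1.33, then 1.26 and 1.09, for ACTB, and the part of this reading in the results was not tested. In bulk RNA, fewer cells of a type and less RNA per cell cannot be told apart.

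RECK itself went against the siRNA labels in both lines. Its probe set with the highest level read 6.07 and 5.52 on the Hs343T arrays labelled siSCR and 11.31 and 11.24 on those labelled siRECK. In Hs606T it read 8.74 and 8.65 on the siSCR arrays and 11.17 and 11.02 on the siRECK arrays. All 4 arrays labelled siRECK thus lay above all 4 labelled siSCR, and the groups did not overlap. The level was 44.5-fold higher in Hs343T (95% interval 33.7 to 58.9, adjusted p = 2.18e-06) and 5.29-fold higher in Hs606T (3.999 to 6.99, adjusted p = 0.00233). The siRECK levels lay close together in the lines, and the siSCR levels differed. Of the other 2 RECK probe sets, 1 was higher by 0.46 in Hs343T (adjusted p = 0.00738) and did not pass in Hs606T (0.17, adjusted p = 0.436). The third gave 0.27 and -0.10 and passed in neither line. Whether labels or cells account for this direction was not tested, and every direction below is that of the labels.

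In Hs343T, 3753 of 11963 genes passed (31.4%), 1507 higher (12.6%) and 2246 lower (18.8%). In Hs606T, 177 passed (1.48%), 108 higher (0.903%) and 69 lower (0.577%). Of these, 96 genes passed in each line in the same direction (0.802% of genes tested), 64 higher (0.535%) and 32 lower (0.267%). The 64 rises were 59.3% of the Hs606T rises and 4.25% of those of Hs343T. The 32 falls were 46.4% of the Hs606T falls and 1.42% of those of Hs343T. A further 35 genes passed in opposite directions (0.293%), and 46 genes that passed in Hs606T did not pass in Hs343T. Of the 64 rises, 35 belonged to the lists of nucleic acid sensors, interferon transcription factors, antiviral effectors and ISG15 conjugation, which held 73 of the genes measured. None of the 32 falls belonged to these lists, which is near what the share of 73 among 11963 genes gives. Without 1 array of Hs606T the count of 96 was 35 (without siSCR 1), 34 (without siSCR 2), 34 (without siRECK 1) and 49 (without siRECK 2), and without 1 array of Hs343T it was 64 to 76. The Hs606T count of 177 was 48, 48, 49 and 76 in the same order, and 108 without either siRECK array of Hs343T.

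**Figure D1:**
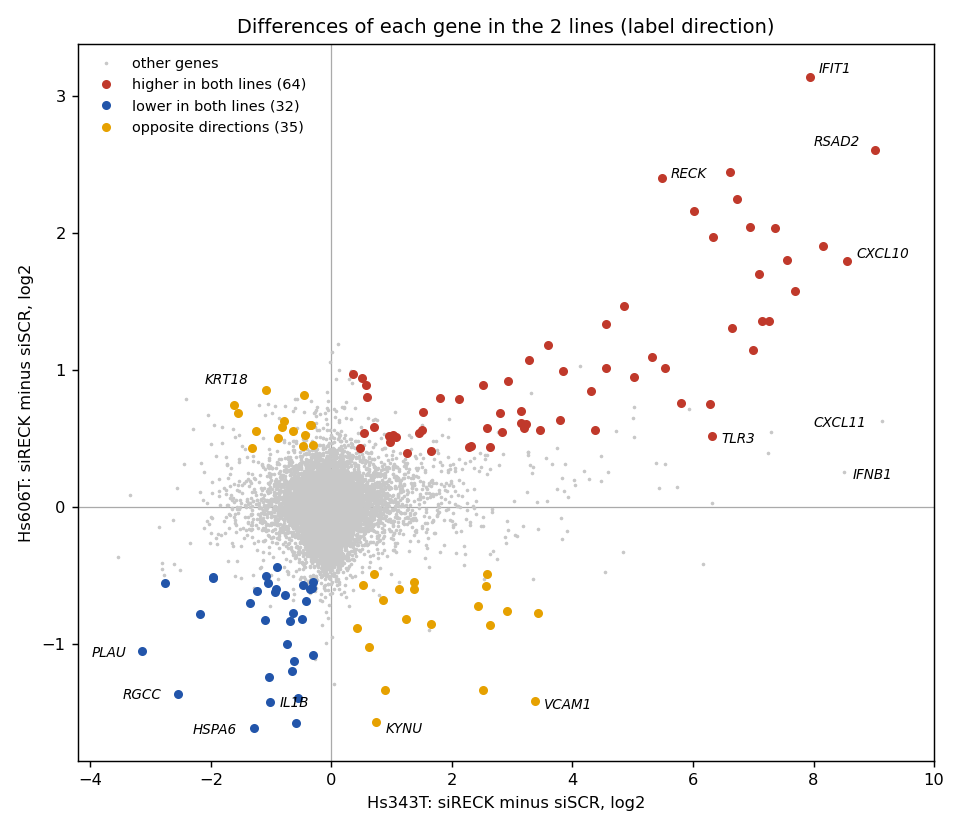
Difference between arrays labelled siRECK and siSCR in Hs343T (x axis, log2) and in Hs606T (y axis, log2) for each of 11963 genes. Red points are the 64 genes that passed as higher in both lines, blue points the 32 that passed as lower in both, and orange points the 35 that passed in opposite directions. The rises reach 9.02 in Hs343T but 3.14 in Hs606T, and IFNB1 and CXCL11 lie far to the right without passing in Hs606T.

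Promoters of some genes that rose in both lines, and of IL1A, are shown with matches to the interferon-stimulated response element described above. Whether this element takes part in the differences was not tested. Sequences are from RefSeq on build GRCh38.p14, each running from 250 bases before to 50 bases after the annotated start, 5′ to 3′ on the strand of the gene. Capitals mark matches on either strand to GAAA repeated after a gap of any 2 bases, a core of the interferon-stimulated response element, or to TGANTCA, an AP-1-like motif. Both motifs were chosen after the values were seen, and every rise shown here holds the first. Among the 12 largest rises in both lines, 10 had a promoter in the RefSeq table, and 6 of these held the first motif. The promoters of RSAD2, OAS1, RIGI and RECK hold no match to it at this gap of 2 bases. Those of RSAD2, OAS1 and RIGI hold GAAA repeated after a gap of 1 base, which was not counted as a match. IFIT1, a protein that binds foreign RNA (chr10:89392373-89392672, plus strand), holds 2 matches to the first motif. IFIT3, its partner (chr10:89327747-89328046, plus), also holds 2, as does RTP4, a receptor transport protein induced by interferon (chr3:187368135-187368434, plus). CXCL10, a chemokine that attracts T cells (chr4:76023448-76023747, minus), holds 1. ISG15, a ubiquitin-like modifier (chr1:1013247-1013546, plus), holds 2 that overlap. IL1A, which fell in both lines (chr2:112784444-112784743, minus), holds no match to the first motif and 2 to the AP-1-like motif.
IFIT1: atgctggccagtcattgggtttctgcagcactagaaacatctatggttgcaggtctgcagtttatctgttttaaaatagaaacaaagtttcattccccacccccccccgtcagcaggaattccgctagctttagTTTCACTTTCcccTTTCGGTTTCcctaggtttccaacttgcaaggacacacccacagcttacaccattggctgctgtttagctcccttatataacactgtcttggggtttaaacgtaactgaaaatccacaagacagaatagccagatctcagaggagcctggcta
IFIT3: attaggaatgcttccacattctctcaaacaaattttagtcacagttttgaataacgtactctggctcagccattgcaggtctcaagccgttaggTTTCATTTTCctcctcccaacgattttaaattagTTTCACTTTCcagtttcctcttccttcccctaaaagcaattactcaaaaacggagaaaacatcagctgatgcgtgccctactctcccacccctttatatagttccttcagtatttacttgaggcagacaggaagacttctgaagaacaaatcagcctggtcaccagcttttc
RTP4: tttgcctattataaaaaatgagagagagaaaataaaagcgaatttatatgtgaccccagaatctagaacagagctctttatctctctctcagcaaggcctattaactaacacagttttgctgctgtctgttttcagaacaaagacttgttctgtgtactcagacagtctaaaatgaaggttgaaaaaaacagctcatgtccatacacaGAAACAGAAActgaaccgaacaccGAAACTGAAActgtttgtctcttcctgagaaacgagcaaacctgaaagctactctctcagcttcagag
CXCL10: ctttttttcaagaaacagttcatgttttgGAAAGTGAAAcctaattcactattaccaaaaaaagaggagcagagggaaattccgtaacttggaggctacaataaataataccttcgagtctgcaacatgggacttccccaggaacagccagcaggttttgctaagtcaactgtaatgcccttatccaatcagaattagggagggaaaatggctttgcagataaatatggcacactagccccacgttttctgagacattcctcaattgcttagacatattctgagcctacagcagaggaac
ISG15: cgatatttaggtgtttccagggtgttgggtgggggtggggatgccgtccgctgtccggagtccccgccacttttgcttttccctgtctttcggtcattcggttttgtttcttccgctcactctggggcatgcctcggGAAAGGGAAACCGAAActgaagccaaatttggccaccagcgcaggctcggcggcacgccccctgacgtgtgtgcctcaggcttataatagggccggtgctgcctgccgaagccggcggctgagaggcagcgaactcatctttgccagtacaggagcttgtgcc
IL1A: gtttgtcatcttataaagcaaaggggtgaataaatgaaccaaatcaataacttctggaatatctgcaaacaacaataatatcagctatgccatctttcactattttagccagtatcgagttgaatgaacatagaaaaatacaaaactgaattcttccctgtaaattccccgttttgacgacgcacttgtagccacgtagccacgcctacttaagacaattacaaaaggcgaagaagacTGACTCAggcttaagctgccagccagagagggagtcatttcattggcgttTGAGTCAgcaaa

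Of the 64 rises, 55 had a promoter in the RefSeq table, and 25 of these (45.5%) held the GAAA repeat. The share was 3.65% among all 27305 promoters of the table and 2.96% among the 9547 promoters of measured genes. Among genes that rose in Hs343T and did not pass in Hs606T it was 6.58% (78 of 1185). Of the 29 antiviral effectors with a promoter, 20 held a match (69.0%). None of the 19 falls with a promoter did, and 4 of 29 genes that passed in opposite directions did (13.8%). The AP-1-like motif was present in 7.76% of all promoters, in 5.43% of those of measured genes, in 3 of 19 falls (15.8%) and in 4 of 55 rises (7.27%). A match describes letters in this window and does not show a bound site.

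Antiviral effectors made up the largest group of shared rises, with 24 of 40 measured genes passing in both lines and none lower in either. Of all genes, 0.535% rose in both lines. All 40 differences were above 0 in each line, and 39 passed in Hs343T, ZC3HAV1 being the exception. The median difference of the list was 4.43 in Hs343T and 0.78 in Hs606T, beside -0.06 and -0.0054 over all genes. IFIT1 read 6.44 and 6.91 on the Hs343T siSCR arrays and 14.55 and 14.68 on siRECK, against 8.94 and 8.86, and 12.06 and 12.02, in Hs606T. Both siRECK arrays lay above both siSCR arrays in each line, by 246-fold in Hs343T (95% interval 192 to 314, adjusted p = 2.1e-07) and 8.83-fold in Hs606T (6.92 to 11.3, adjusted p = 0.000611). The size differed between the lines (difference of differences -4.80 ± 0.21, SE, adjusted p = 2.58e-05). Hs606T thus started from a higher level with siSCR and ended lower with siRECK.

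RSAD2, also called viperin, an enzyme that makes a chain-terminating nucleotide, read 4.32 and 4.11 with siSCR and 13.22 and 13.26 with siRECK in Hs343T. In Hs606T it read 4.72 and 5.13, then 7.46 and 7.60. It was 6.09-fold higher in Hs606T (4.82 to 7.70, adjusted p = 0.00111) and 520-fold higher in Hs343T, where both siSCR arrays lay below the lower quartile of the array. IFIT3 rose from 7.15 and 7.19 to 13.80 and 13.78 in Hs343T, and from 7.56 and 7.51 to 9.92 and 10.04 in Hs606T, so that the lines lay apart mainly with siRECK. MX1, a GTPase that blocks viral nucleocapsids, read 5.20 and 4.89 with siSCR in Hs343T but 9.41 and 9.22 in Hs606T, and rose to 13.18 and 13.22, and to 11.20 and 11.24. OAS1, which makes a messenger that activates an RNA-cutting enzyme, rose by 7.36 in Hs343T and 2.03 in Hs606T (adjusted p = 0.00136). IFIT2 rose by 6.73 and 2.25 and IFI44L, a member of a family of little-studied interferon-induced proteins, by 7.56 and 1.80. IFI44L missed the threshold in Hs606T without its first siRECK array (adjusted p = 0.0512). MX2, PLSCR1, IFI44, IFITM1, SAMHD1 and IFI27 rose in both lines as well, by 0.85 to 1.70 in Hs606T and by 3.6015 to 7.10 in Hs343T. The count of 24 effectors was 21 without either Hs343T siSCR array, 19 without either Hs343T siRECK array, 14 without either Hs606T siSCR array, 12 without Hs606T siRECK 1 and 15 without Hs606T siRECK 2.

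ISG15 is attached to other proteins by a dedicated set of enzymes and removed by USP18. Of 5 measured genes of this list, 4 rose in both lines, a count that stayed at 4 without any one of the 8 arrays. ISG15 read 9.59 and 9.46 with siSCR and 14.06 and 14.10 with siRECK in Hs343T. On the Hs606T arrays it was 10.64 and 10.61, then 11.98 and 11.94. The groups of arrays did not overlap in either line, and the fold was 23.5 in Hs343T (20.9 to 26.5) and 2.53 in Hs606T (2.24 to 2.84, adjusted p = 0.00109). USP18, which also dampens interferon receptor signalling, rose by 6.01 and 2.16. The ligases HERC5 and HERC6 rose by 7.15 and 1.36, and by 7.001 and 1.15. The conjugating enzyme UBE2L6 rose by 2.55 in Hs343T and gave 0.35 in Hs606T (adjusted p = 0.092).

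Sensors of foreign nucleic acid followed, with 5 of 16 measured genes higher in both lines and 11 higher and 2 lower in Hs343T. Of all genes, 0.535% were higher in both lines, and 12.6% were higher and 18.8% lower in Hs343T. RIGI, a helicase that detects RNA with a triphosphate end, read 6.88 and 6.94 with siSCR and 13.27 and 13.22 with siRECK in Hs343T. In Hs606T it read 6.91 and 6.52, then 8.76 and 8.61, a rise of 1.97 beside 6.33 in Hs343T. IFIH1, the helicase for long double-stranded RNA, rose by 7.69 and 1.57 (Hs606T adjusted p = 0.0129, but up to 0.101 without either Hs606T siSCR array). TLR3, the endosomal receptor for double-stranded RNA, rose by 6.32 and 0.52, IFI16, a DNA sensor, by 2.83 and 0.55, and EIF2AK2, the kinase that halts translation, by 2.31 and 0.44. The Hs606T calls of these 3 genes were lost without any one of the 8 arrays (adjusted p up to 0.245), and the list's count of 5 fell to 1 without either Hs606T siSCR array and to 2 without any one of the other arrays. AIM2, a DNA sensor, and the sensor DDX60 rose by 4.28 and 5.94 in Hs343T and gave 0.20 (adjusted p = 0.618) and 0.72 (0.118) in Hs606T, and their differences between the lines passed (adjusted p = 6.55e-05 and 2.51e-05).

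Among 12 interferon transcription factors, 9 rose in Hs343T (beside 12.6% of all genes) and 2 in both lines (beside 0.535%). These 2 were IRF9, by 2.11 and 0.79, and SP110, a nuclear body protein, by 3.14 and 0.70. IRF9 read 8.87 and 8.85, then 10.94 and 11.01, in Hs343T, and 9.0005 and 8.97, then 9.82 and 9.72, in Hs606T. IRF7, which amplifies interferon production, rose by 4.12 in Hs343T and gave 1.03 in Hs606T (adjusted p = 0.0641), and it passed there without Hs343T siSCR 1 or siSCR 2 (lowest adjusted p = 0.0133). IRF1 rose by 2.65 in Hs343T and gave 0.45 in Hs606T (adjusted p = 0.157). The count of 2 in both lines was 3 without either Hs343T siSCR array, 1 without Hs606T siRECK 2 and 0 without Hs606T siSCR 1, siSCR 2 or siRECK 1.

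The interferon genes themselves did not share this pattern. IFNB1, which encodes interferon beta, read 4.30 and 4.22 with siSCR and 12.80 and 12.73 with siRECK in Hs343T. In Hs606T it read 3.87 and 4.15, then 4.21 and 4.33, so that all 4 Hs606T arrays stayed at the level of the Hs343T siSCR arrays, below each array's lower quartile. The difference was 8.50 in Hs343T (adjusted p = 5.4e-08) and 0.26 in Hs606T (95% interval 0.0027 to 0.51, adjusted p = 0.358), and the difference between the lines passed (adjusted p = 1.39e-06). Of 14 measured interferon genes, 3 rose in Hs343T, IFNB1, IFNA1 by 1.05 and IFNA16 by 0.41, and none passed in Hs606T. Of all genes, 12.6% rose in Hs343T and 1.48% passed in Hs606T, so that none of 14 in Hs606T is near that share. The IFNA genes are near-identical copies that a probe set may not tell apart, and the IFNA16 call was lost without Hs343T siSCR 2, siRECK 1 or siRECK 2 (adjusted p up to 0.0994). Of 8 receptors and kinases, JAK2 alone passed, with a rise of 2.78 in Hs343T and a value of 0.31 in Hs606T (adjusted p = 0.327).

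**Figure D2:**
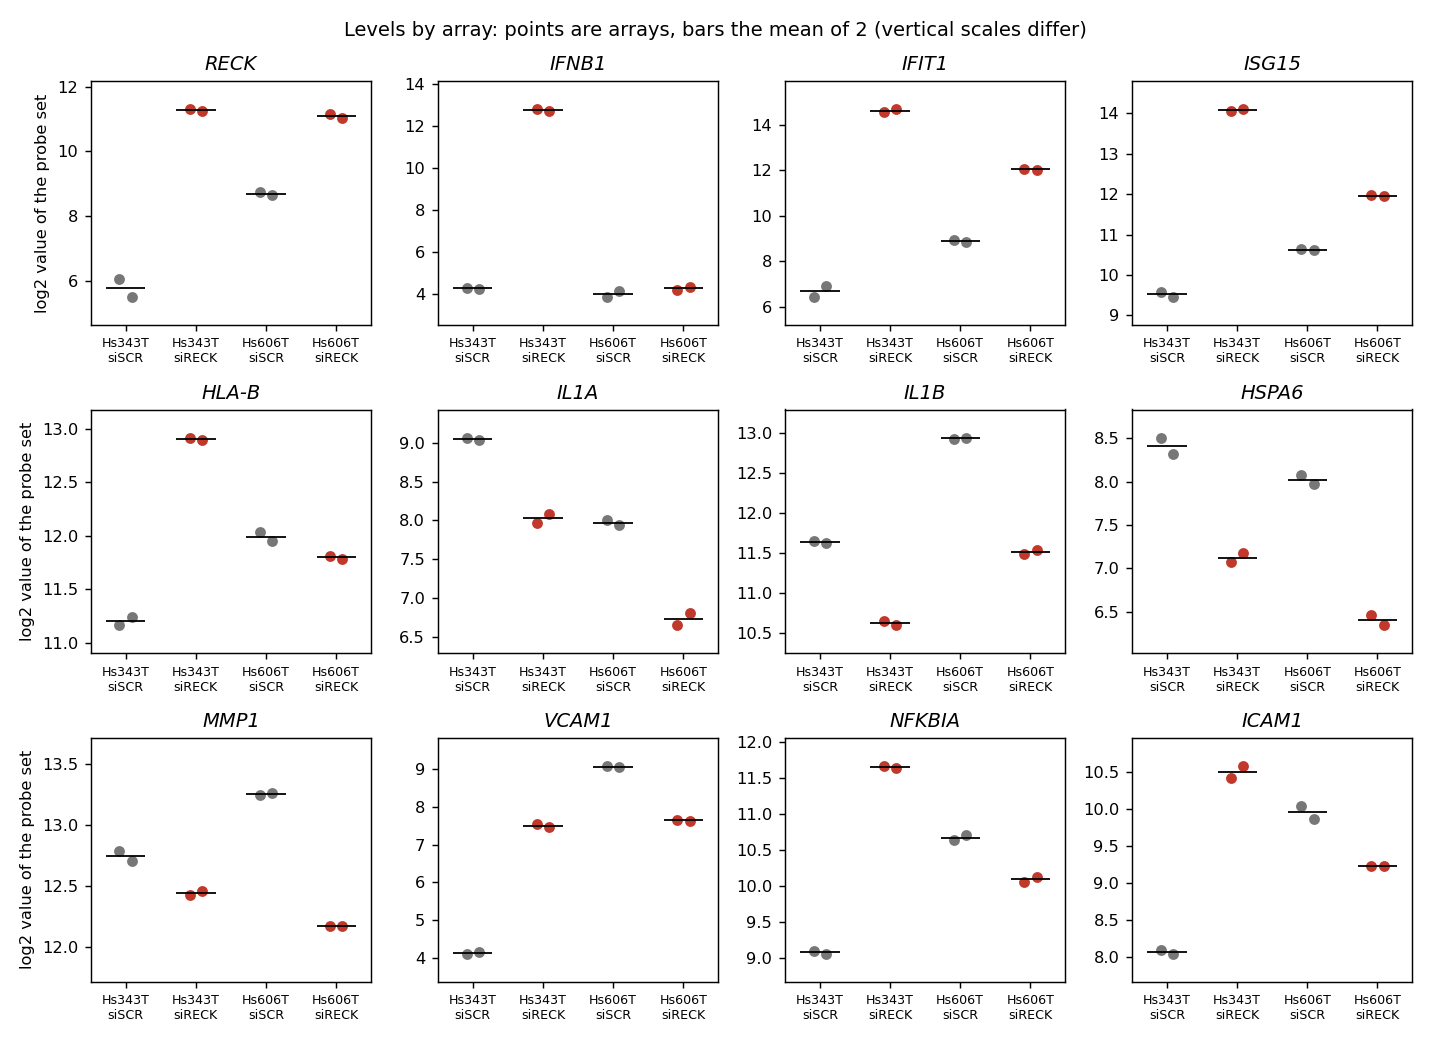
Log2 level of 12 genes on each of the 8 arrays, in 4 groups of 2 (grey siSCR, red siRECK), with a bar at the mean of the 2 arrays and a scale of its own in each panel. RECK, IFIT1 and ISG15 are higher and IL1A, IL1B, HSPA6 and MMP1 lower on siRECK in both lines, IFNB1 and HLA-B are higher in Hs343T and did not pass in Hs606T, and VCAM1, NFKBIA and ICAM1 are higher in Hs343T and lower in Hs606T.

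The shared rises were unequal in size. In Hs343T their median was 3.53 and in Hs606T 0.87, and 60 of 64 were larger in Hs343T. The difference between the lines passed for 58 of the 64, of which 57 were larger in Hs343T, beside 22.5% of all genes. The exception was CSRP2, a LIM domain protein, with 0.36 in Hs343T and 0.97 in Hs606T, whose Hs343T call was lost without Hs343T siSCR 1 or siRECK 1 (adjusted p up to 0.0783). With siSCR, both Hs606T arrays lay above both Hs343T arrays for 46 of the 64 genes and below them for 12, compared with 3861 and 4611 of all 11963 genes. With siRECK, both Hs343T arrays lay above both Hs606T arrays for 60 of the 64. The median level of the 64 genes was 7.42 with siSCR and 11.64 with siRECK in Hs343T, and 8.66 and 9.57 in Hs606T. Of the 64, 8 lay below the lower quartile on both Hs343T siSCR arrays, so their folds there rest on dim values, and none did on the Hs606T siSCR arrays.

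**Figure D3:**
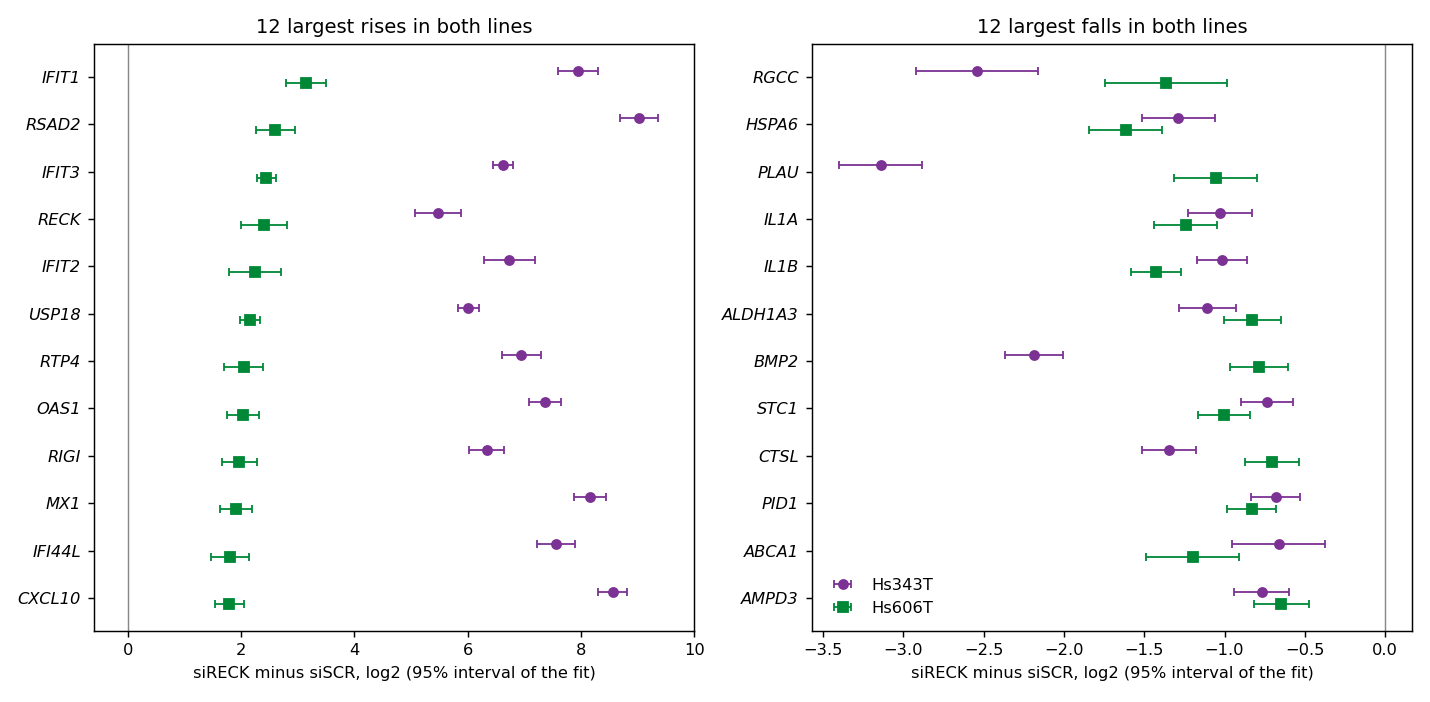
The 12 largest rises (left) and 12 largest falls (right) among genes that passed the same way in both lines, ordered by the smaller of the 2 differences. Points are log2 differences (circles Hs343T, squares Hs606T) and bars are 95% intervals of the limma fit. The intervals of the 12 rises do not meet between the lines, and those of HSPA6, IL1A, ALDH1A3, STC1, PID1, ABCA1 and AMPD3 do.

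Several shared rises lay outside the interferon lists. FGF1, a growth factor for fibroblasts and endothelial cells, rose by 2.51 and 0.89, and missed the Hs606T threshold without Hs606T siSCR 2 or siRECK 1 (adjusted p up to 0.0589). The oxytocin receptor gene OXTR rose by 0.58 and 0.80 and the sialyltransferase gene ST6GALNAC5 by 0.57 and 0.89. OXTR read 7.25 and 7.44, then 7.81 and 8.05, in Hs343T, and 9.75 and 9.84, then 10.59 and 10.60, in Hs606T. GADD45A, a DNA damage response gene, rose by 1.01 and 0.53, and LIPA, the lysosomal acid lipase, by 0.95 and 0.52. FABP3, a fatty acid carrier, rose by 0.50 and 0.94, and the histone gene H2AC6 by 0.70 and 0.58. The Hs606T calls of OXTR, ST6GALNAC5, GADD45A, LIPA, FABP3 and H2AC6 were each lost without Hs606T siSCR 1, siSCR 2 or siRECK 1, and some without other arrays too (adjusted p up to 0.194). The Hs343T call of FABP3 was lost without Hs343T siSCR 1 or siRECK 1 (0.0643). Among the 96 genes, SP110, IFI16, EIF2AK2, GBP1, FGF5, APOL2, IFITM2, THEMIS2 and GK6P were read by probe sets that may cross-hybridise, and no probe set of the 96 passed against its gene's direction. In all, 20 of the 64 rises passed in both lines without any one of the 8 arrays, and 40 reached 1.5-fold in both.

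The fit of line and arm, which asks for 1 difference of the same size in both lines, passed 31 genes (0.259%), 9 higher (0.0752%) and 22 lower (0.184%). Of these, 27 also passed in each line, and the difference between the lines passed for 9. The largest antiviral rises were not among them, since a difference in size between lines widens the residual of this fit: IFIT1 gave 5.54 with an adjusted p of 0.0623. The mean of the 2 line differences in the fit of 4 group means, which takes its spread from within the groups, passed 2768 genes (23.1%). A large difference in 1 line alone can pass by this mean, so it does not count genes that changed in both. In the fit of line and arm, RECK passed with 3.94 ± 0.56 (SE, adjusted p = 0.0442), a call lost without any one of the 8 arrays (0.0703 to 0.167), with the arrays centred on their medians (0.0508), with 1 probe set per gene (0.0626), with the mean of all its probe sets (0.063), with trend and robust eBayes (0.086) and with the replicate block (0.334). GADD45A, LIPA, ST6GALNAC5, OXTR, H2AC6, FGF5, AMPH and PRSS23 were the other 8 that rose, by 0.45 to 0.77. The count of 9 rises was 11 without Hs606T siRECK 2 and 0 without any one of the other 7 arrays. HSPA6, IL1A and IL1B had the lowest adjusted p-values among the falls (0.00595, 0.00595 and 0.00725). Without 1 array the count of 31 was 6 and 3 (Hs343T siSCR 1 and 2), 4 and 7 (Hs343T siRECK 1 and 2), 4 and 0 (Hs606T siSCR 1 and 2) and 6 and 23 (Hs606T siRECK 1 and 2). Without Hs606T siSCR 2, where limma called none, 2744 genes had an unadjusted p under 0.05, beside 2638 with all 8 arrays.

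Interleukin 1 fell in both lines. IL1A read 9.07 and 9.04 with siSCR and 7.97 and 8.08 with siRECK in Hs343T, and 7.998 and 7.95, then 6.65 and 6.81, in Hs606T. The siRECK arrays lay below the siSCR arrays of their own line, at 0.490 of their level in Hs343T (0.428 to 0.562) and 0.423 in Hs606T (0.369 to 0.484, adjusted p = 0.00204). The difference between the lines was -0.21 ± 0.12 (SE, adjusted p = 0.269). The other IL1A probe set fell by 0.40 in Hs343T (adjusted p = 0.0198) and gave -0.36 in Hs606T (0.169). IL1B read 11.66 and 11.62, then 10.65 and 10.60, in Hs343T, and 12.93 and 12.95, then 11.49 and 11.54, in Hs606T. It fell by 1.01 in Hs343T and 1.43 in Hs606T, and the 2 falls differed (adjusted p = 0.0222). Both calls were kept in each line without any one of the 8 arrays.

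HSPA6, an inducible heat shock protein, read 8.51 and 8.32 with siSCR and 7.07 and 7.18 with siRECK in Hs343T. The Hs606T levels were 8.07 and 7.97, then 6.46 and 6.35. The groups did not overlap in either line, and siRECK was at 0.410 of siSCR in Hs343T (0.350 to 0.480) and 0.326 in Hs606T (0.279 to 0.382, adjusted p = 0.00136). RGCC, a regulator of the cell cycle, gave the largest fall by the smaller difference, 2.54 and 1.37, but its Hs606T call was lost without any one of the 4 Hs606T arrays (adjusted p up to 0.123). The shared differences of HSPA6, IL1A and IL1B in the fit of line and arm were -1.45 ± 0.10, -1.14 ± 0.08 and -1.22 ± 0.09 (SE), and each missed the threshold without Hs606T siSCR 2, at an adjusted p that rounds to 0.05.

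STC1, a secreted glycoprotein, read 9.42 and 9.42, then 8.66 and 8.71, in Hs343T, and 10.64 and 10.56, then 9.57 and 9.63, in Hs606T. BMP2, a bone morphogenetic protein, fell by 2.19 and 0.78 and CTSL, the lysosomal protease cathepsin L, by 1.35 and 0.70. ALDH1A3, an enzyme of retinoic acid synthesis, fell by 1.11 and 0.83, and PID1, a protein that binds an LDL receptor relative, by 0.68 and 0.83. ABCA1, the cholesterol exporter, fell by 0.66 and 1.20 and AMPD3, an AMP deaminase, by 0.77 and 0.65. Of these, STC1 and PID1 passed in both lines without any one of the 8 arrays. Another STC1 probe set gave -0.19 in Hs343T (adjusted p = 0.344) and -0.77 in Hs606T (0.0515) and passed in neither line. A further STC1 probe set fell by 0.75 and 0.99 and passed in both. The Hs606T calls of BMP2, CTSL and ALDH1A3 were lost without Hs606T siSCR 1, siSCR 2 or siRECK 1 (adjusted p up to 0.0854), that of ABCA1 without either siSCR array of that line (up to 0.0794) and that of AMPD3 without any 1 of its 4 arrays (up to 0.111). The steroid enzyme gene HSD11B1, the aldo-keto reductase AKR1B10 and the chemokine CXCL3 fell by 0.56 and 1.40, 0.63 and 1.13, and 0.59 and 1.58, and kept both calls without any one array. Of the 32 falls, 8 kept both calls in this way and 18 reached 1.5-fold in both lines.

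The 32 falls were nearer in size than the rises, with a median of -0.91 in Hs343T and -0.74 in Hs606T. Of them, 15 were larger in Hs343T, and the difference between the lines passed for 16. Their median level was 9.99 with siSCR and 8.64 with siRECK in Hs343T, and 10.48 and 9.73 in Hs606T. Across all 11963 genes the Pearson correlation of the 2 differences was 0.26 and Spearman's rho 0.05, as a description only, since genes are not independent and the arrays share a platform and scaling.

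Proteases and their inhibitors bear on the function of RECK. Of 36 measured genes, 1 rose in both lines, which was RECK, and 3 fell in both, PLAU, MMP3 and MMP1. Of all genes, 0.535% rose and 0.267% fell in both. PLAU, the urokinase plasminogen activator, read 10.49 and 10.56 with siSCR and 7.32 and 7.45 with siRECK in Hs343T, and 8.46 and 8.42, then 7.24 and 7.53, in Hs606T. It fell to 0.113 of its siSCR level in Hs343T and to 0.481 in Hs606T (0.402 to 0.576, adjusted p = 0.00886), and the Hs606T call was lost without either Hs606T siSCR array (adjusted p = 0.084 and 0.0785). MMP1, the interstitial collagenase, read 12.79 and 12.71, then 12.42 and 12.46, in Hs343T, and 13.25 and 13.26, then 12.17 and 12.17, in Hs606T. It fell by 0.305 and 1.08, more in Hs606T (adjusted p of the difference = 0.00179), and the Hs343T call was lost without Hs343T siSCR 1, siRECK 1 or siRECK 2 (up to 0.0793). MMP3, stromelysin 1, fell by 0.42 and 0.69, and its Hs606T call was lost without any 1 of the 4 Hs606T arrays (up to 0.0958). MMP2, MMP9 and MMP14, targets of RECK, gave 0.03 and -0.08, -0.24 and -0.08, and -0.12 and -0.39, and did not pass in either line by the probe set with the highest level. Of the other 3 MMP14 probe sets, 1 fell by 0.48 in Hs606T (adjusted p = 0.0353). TIMP3, another inhibitor, gave -0.08 in Hs343T and rose by 0.50 in Hs606T, a call lost without any one of the 8 arrays (up to 0.17). The count of 3 falls in both lines was 1 without either Hs606T siSCR array and 2 without Hs606T siRECK 1 or 2, Hs343T siSCR 1 or Hs343T siRECK 2.

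Genes of the STAT3 question were next compared. STAT3 read 9.899 and 9.82 with siSCR and 10.81 and 10.85 with siRECK in Hs343T, a rise of 0.97, and 10.33 and 10.34, then 10.64 and 10.68, in Hs606T. The Hs606T arrays did not overlap, but the difference of 0.32 did not pass (95% interval 0.17 to 0.48, adjusted p = 0.092). The other STAT3 probe set rose by 0.89 in Hs343T (adjusted p = 0.00043) and gave 0.04 in Hs606T (0.867). IL6, a cytokine that activates STAT3, read 11.77 and 11.77, then 12.86 and 12.91, in Hs343T, and 13.35 and 13.29, then 12.68 and 12.76, in Hs606T. It rose by 1.12 in Hs343T and fell by 0.60 in Hs606T (adjusted p = 0.0129, and up to 0.118 without any 1 of the 4 Hs606T arrays), and the difference between the lines passed (adjusted p = 7.37e-05). IL6ST, the receptor subunit that carries the signal, gave 0.03 and -0.12, and another of its probe sets rose by 0.32 in Hs343T (adjusted p = 0.0158). VEGFA, the main vessel growth factor, fell by 0.95 in Hs343T and gave -0.03 in Hs606T. Its other probe sets fell by 0.65 and 0.73 in Hs343T or gave -0.13 there without passing, and none passed in Hs606T. The probe sets of CXCL8, a chemokine with angiogenic activity, disagreed. Its probe set with the highest level, which may cross-hybridise, gave -0.38 and -0.04 and passed in neither line with all 8 arrays, and the other fell by 1.08 (adjusted p = 5e-05) and 0.56 (0.0154). The Hs343T difference of the first passed without Hs606T siRECK 1 or 2 (lowest adjusted p = 0.0136). Of 32 angiogenic factors, 2 rose in both lines, FGF1 and FGF5, and none fell in both, beside 0.535% and 0.267% of all genes. FGF5 rose by 0.54 in each, a Hs606T call lost without any one of the 8 arrays (adjusted p up to 0.236). Its other probe sets gave 0.44 and 0.30 in Hs606T without passing (adjusted p = 0.151 and 0.233). The first of these rose by 0.46 in Hs343T (0.0203), and the second gave 0.26 there without passing (0.0826). The count of 2 was 0 without Hs606T siSCR 2 or siRECK 1, and 1 without any one of the other arrays.

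Chemokines and cytokines split between the lines. Of 32 measured, 18 rose and 4 fell in Hs343T, beside 12.6% and 18.8% of all genes. In Hs606T 1 rose and 10 fell, beside 0.903% and 0.577%. CXCL10 was the 1 that rose in both: it read 4.54 and 4.60, then 13.14 and 13.12, in Hs343T, and 5.58 and 5.27, then 7.26 and 7.17, in Hs606T, where it was 3.46-fold higher (2.90 to 4.14, adjusted p = 0.00136). CXCL11, which binds the same receptor, read 3.71 and 3.74, then 12.86 and 12.88, in Hs343T, and 3.70 and 3.96, then 4.57 and 4.34, in Hs606T. Its Hs606T arrays did not overlap, with a difference of 0.63 that did not pass (adjusted p = 0.0602). IL1A, IL1B and CXCL3 were the 3 that fell in both lines. Of the neutrophil-attracting chemokines, CXCL2 read 7.54 and 7.73, then 8.42 and 8.61, in Hs343T, and 11.43 and 11.38, then 10.08 and 10.05, in Hs606T. It thus rose by 0.89 in Hs343T and fell by 1.34 in Hs606T. The count of 10 lower in Hs606T was 6 without Hs606T siSCR 2 or siRECK 2.

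The 35 genes that passed in opposite directions comprised 20 higher in Hs343T and lower in Hs606T (0.167% of genes) and 15 the other way (0.125%). VCAM1, a cell adhesion molecule that NF-kB induces, read 4.11 and 4.16 with siSCR and 7.55 and 7.47 with siRECK in Hs343T. In Hs606T it read 9.09 and 9.06, then 7.67 and 7.64, so that the lines differed widely with siSCR and lay close together with siRECK. It was 10.4-fold higher in Hs343T (9.29 to 11.6) and at 0.374 of siSCR in Hs606T (0.335 to 0.418, adjusted p = 0.000611). Both Hs343T siSCR values of VCAM1 lay below the lower quartile of their array (4.67 and 4.66), so its fold there rests on dim values. Of 18 NF-kB subunits and feedback genes, 12 rose in Hs343T and 5 fell in Hs606T, beside 12.6% and 0.577% of all genes. The 5 were VCAM1, ICAM1, NFKBIA, TNFAIP3 and TNIP1. All 5 also rose in Hs343T. NFKBIA, the inhibitor of NF-kB, rose by 2.57 and fell by 0.57, TNFAIP3, a brake on the pathway, by 2.57 and 0.49, TNIP1, its partner, by 1.36 and 0.60, and ICAM1, an adhesion molecule, by 2.43 and 0.72. Except for VCAM1, these Hs606T calls were lost without any 1 of the 4 Hs606T arrays, and that of TNFAIP3 without any one of the 8 (adjusted p up to 0.153), so that the count of 5 was 1 without an array of Hs606T and 4 without an array of Hs343T.

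Other genes of this kind were ATF3, a stress transcription factor, with 2.63 and -0.86, IL1RN, which blocks the interleukin 1 receptor, with 1.65 and -0.86, and the ion channel gene TRPA1 with 2.52 and -1.34. The other 4 IL1RN probe sets gave -0.08 to 0.08 in Hs343T and did not pass there, and 1 of them fell by 0.95 in Hs606T (adjusted p = 0.0489). The other TRPA1 probe set gave 0.15 and -0.39 and passed in neither line. The Hs606T call of ATF3 was lost without Hs606T siSCR 1, siSCR 2 or siRECK 1 (adjusted p up to 0.0858). That of IL1RN was lost without Hs606T siSCR 2 or a siRECK array of either line (up to 0.155), and that of TRPA1 without any one array other than Hs606T siSCR 2 (up to 0.159). KYNU, an enzyme of the kynurenine pathway, read 9.67 and 9.54, then 10.28 and 10.42, in Hs343T, and 5.54 and 5.65, then 3.99 and 4.06, in Hs606T, a rise of 0.74 and a fall of 1.57. In the other direction KRT18, an epithelial keratin, fell by 1.08 in Hs343T and rose by 0.86 in Hs606T, and its calls held without any one of the 8 arrays. KRT18, CXCL2 and HLA-B were read by probe sets that may also bind related transcripts.

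Antigen presentation by MHC class I differed between the lines. Of 19 measured genes, 16 rose in Hs343T, beside 12.6% of all genes. None passed in Hs606T, which is near the share of all genes that passed there (1.48%). Both counts were the same without any one of the 8 arrays. HLA-B read 11.16 and 11.24 with siSCR and 12.92 and 12.89 with siRECK in Hs343T, and 12.04 and 11.95, then 11.81 and 11.78, in Hs606T. It rose by 1.70 in Hs343T and gave -0.19 in Hs606T (95% interval -0.36 to -0.03, adjusted p = 0.299). PSMB9, a subunit of the immunoproteasome, read 6.71 and 6.88, then 12.34 and 12.31, in Hs343T, and 9.56 and 9.44, then 9.72 and 9.898, in Hs606T. The rise of 5.53 in Hs343T and the value of 0.31 in Hs606T differed (adjusted p = 2.95e-06), and for 16 of the 19 genes the difference between the lines passed. Of the 17 promoters of this list in the RefSeq table, 8 (47.1%) held the GAAA repeat.

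**Figure D4:**
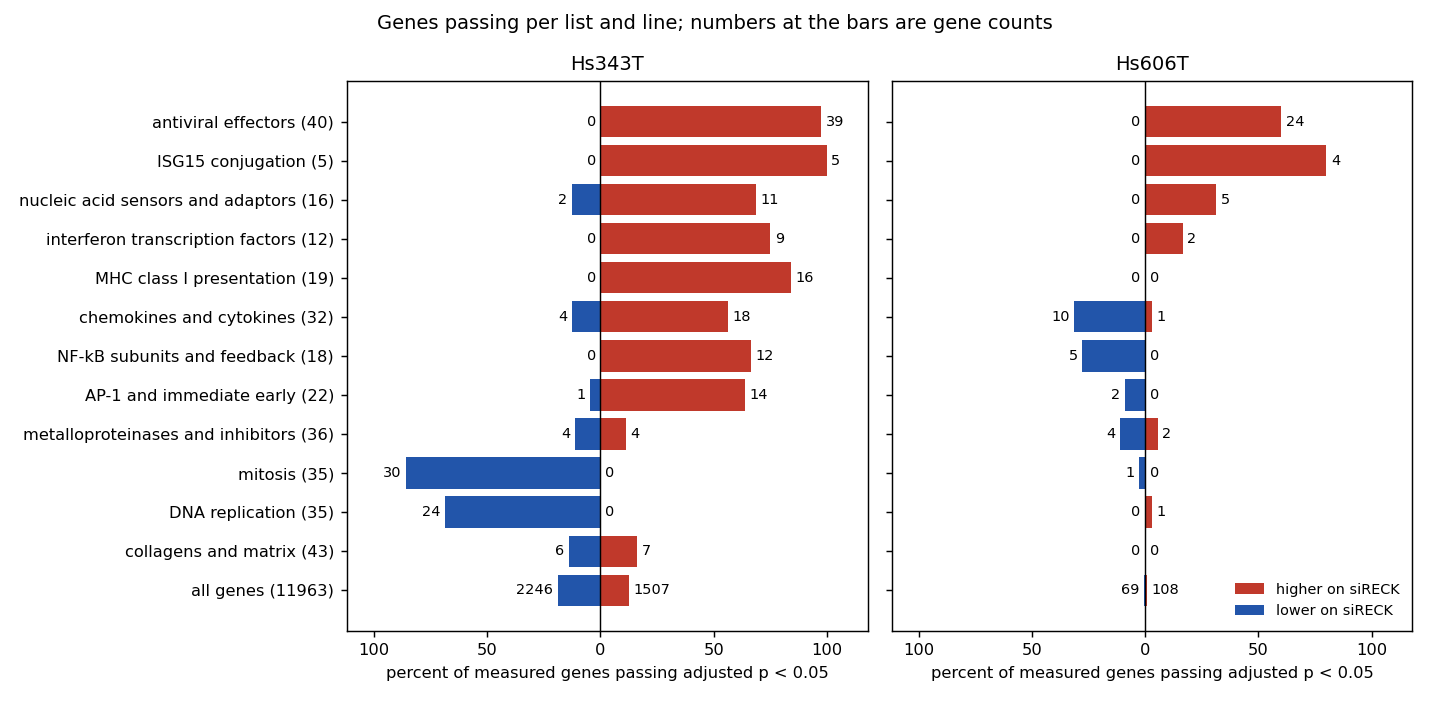
Percent of the measured genes of each list that passed in Hs343T and in Hs606T, with the counts beside the bars and all genes as the last comparison. Antiviral effectors and ISG15 conjugation genes pass in both lines, and MHC class I and mitosis genes pass in Hs343T with 0 and 1 calls in Hs606T.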

How the data were processed

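The deposited series table holds 1 log2 value per probe set and array, for which the authors used Partek, per the submitters' processing notes. How probe sets were summarised and scaled, and the version, are not stated there, no detection calls were used, and the log2 base was read from the values. No values were rescaled. Of 22277 probe sets, 62 controls were left out and 22215 tested. By the platform annotation 19064 had 1 gene symbol, 1043 several and 2108 none. Each of 11963 genes was read from the probe set whose mean on the 8 arrays was highest. Near-identical families (IFIT, OAS, IFITM, IFNA, histones, USP18 and its copy) may share signal.

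limma 3.58.1 in R 4.3.3 fitted 4 group means (4 residual and 2.78 prior degrees of freedom, median residual SD 0.11) and, for a single shared difference, line + arm (5 and 2.92, SD 0.15). Tests were 2-sided with Benjamini-Hochberg adjustment over all 22215 probe sets at 0.05, intervals are 95% intervals, and the number of arrays limits precision. Tables were made in Python 3.11.15 (numpy 2.4.6, pandas 2.3.3) and figures with matplotlib 3.10.9. Replicate numbers were checked for pairing. The deviations of arrays with the same number correlated at -0.05 in Hs343T and 0.001 in Hs606T, so they were not used as a block.

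The members and gene lists were chosen with earlier results of these data known. Named are RECK, the 12 largest rises and 12 largest falls in both lines (by the smaller difference, groups of arrays not overlapping), the 6 largest opposite changes, up to 4 members per list that passed in both lines, any interferon, receptor, sensor or transcription factor, and 10 genes that bear on STAT3 signalling and invasion. Every other gene was chosen after its values were seen. Alternatives were quantile scaling, median centring, all 16 arrays, other probe set rules, no dim probe sets, trend and robust eBayes, the replicate block, each line alone, a 1.5-fold minimum, the mean of both lines and leaving out each array.

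On simulated data with normal noise, 50 of 22215 probe sets were changed per fold size, each by the same amount in both lines. Tests within a line recovered 44% (Hs343T) and 40% (Hs606T) of 1.5-fold changes, and 82% and 80% of 2-fold changes. They recovered 98% and 96% of 4-fold and 100% of 8-fold changes, with 15 false calls each. Calls in both lines in the same direction recovered 32%, 76%, 96% and 100%, with 0 false calls. The fit of line and arm recovered 66%, 94%, 98% and 100%, with 9 false calls. In the real data far more genes passed in Hs343T and most shared rises differed in size between the lines, so these rates may not carry over.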

Additional observations from a re-analysis of the deposited data

Results flagged for a closer look

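The responses of the 2 lines differed by limma's test of the difference itself for the genes given here, each as the Hs606T difference minus the Hs343T difference on the log2 scale (adjusted p under 0.05). A negative value means a more negative or smaller difference in Hs606T. Groups of 2 arrays were too small for a check of single arrays. Among RECK and the largest shared rises, the value was -3.075 for RECK, -4.80 for IFIT1, -6.42 for RSAD2, -4.17 for IFIT3, -4.49 for IFIT2, -3.85 for USP18 and -4.90 for RTP4. It was -5.33 for OAS1, -4.36 for RIGI, -6.25 for MX1, -5.76 for IFI44L and -6.77 for CXCL10. Among other interferon-induced genes, the value was -3.22 for ISG15, -5.79 for HERC5, -5.85 for HERC6, -6.12 for IFIH1, -5.80 for TLR3, -2.28 for IFI16 and -1.87 for EIF2AK2. It was -4.08 for AIM2, -5.22 for DDX60, -1.33 for IRF9, -2.44 for SP110, -3.10 for IRF7 and -2.21 for IRF1. Among interferon and antigen presentation genes, the value was -8.25 for IFNB1, -1.06 for IFNA1, -2.47 for JAK2, -8.52 for CXCL11, -1.90 for HLA-B and -5.22 for PSMB9.

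Among genes that passed in opposite directions, the value was -4.79 for VCAM1, -3.85 for TRPA1, -2.22 for CXCL2, -3.50 for ATF3, -2.51 for IL1RN, 1.94 for KRT18 and -2.31 for KYNU. It was -3.14 for NFKBIA, -3.07 for TNFAIP3, -1.96 for TNIP1, -3.15 for ICAM1 and -1.71 for IL6. Among genes that fell in both lines, the value was 1.18 for RGCC, 2.09 for PLAU, 1.40 for BMP2, 0.64 for CTSL, -0.41 for IL1B, -0.78 for MMP1 and -0.99 for CXCL3. It was -0.84 for HSD11B1, -0.50 for AKR1B10, 0.62 for TSC22D1, 0.50 for TRIB2, 2.21 for SLC7A11 and 1.45 for DDIT4. Among further genes, the value was -1.62 for FGF1, -0.49 for GADD45A, -0.43 for LIPA, 0.61 for CSRP2, -0.64 for STAT3, 0.92 for VEGFA and 0.58 for TIMP3.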

How the results depend on the processing

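With 2 arrays in a group, the calls in Hs606T limit what passes in both lines. The shared response, 31 genes in the fit of line and arm, was 595 with all 16 arrays, 11 with 1 probe set per gene and 55 with trend and robust eBayes. It was 0 with the replicate block (limma, 1688 genes at an unadjusted p under 0.05). Without 1 array it ran from 0 to 23. With all 16 arrays, the spread within the other groups of the series also enters the residual. The mean of both lines from 4 group means passed 2768 genes. That mean can pass a gene that changed in 1 line only, so 2768 does not count a response in common. The Hs606T response, 177 genes, was 117 with all 16 arrays, 622 with trend and robust eBayes, 35 with the replicate block, 47 with each line alone and 48 to 127 without 1 array. The Hs343T response, 3753 genes, was 1812 at 1.5-fold or more and 2799 to 3776 without 1 array. The 96 genes with the same direction in both lines became 271 with trend and robust eBayes, 26 with the replicate block, 35 with each line alone, 58 at 1.5-fold or more and 34 to 76 without 1 array. The difference between line responses, 2688 genes, was 1824 to 2389 without 1 array and stayed within 1.5 times that number under every alternative run. Of the 96, 91 passed again with quantile scaling, 94 with centring and 60 with all 16 arrays. Scaling moved the median difference of all genes by at most 0.05. Of the Hs606T differences of 89 genes, 45 lost the call with the replicate block, 39 with each line alone and 28 with all 16 arrays. No named difference reversed a call's direction under these alternatives, and the cause of the changes was not tested. The replicate block could not be read as pairing, since same-numbered arrays did not deviate together.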

Other observations

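Cell cycle genes did not share a direction between the lines. Of 35 mitosis genes, 30 fell in Hs343T and none rose, beside 18.8% and 12.6% of all genes. Their median was -1.53 in Hs343T and 0.16 in Hs606T. ESPL1, the protease separase that frees sister chromatids, was the 1 that fell in both lines, by 0.32 and 0.59, and did not keep both calls. The Hs343T call was lost without Hs343T siSCR 1, siRECK 1 or siRECK 2 (adjusted p up to 0.107), and the Hs606T call without any one Hs606T array or either Hs343T siRECK array (up to 0.149). CDK1, the mitotic kinase, read 8.92 and 8.84, then 6.85 and 6.58, in Hs343T, and 5.58 and 5.62, then 5.92 and 5.91, in Hs606T. Its Hs606T difference of 0.32 did not pass (adjusted p = 0.229). Of 35 DNA replication genes, 24 fell in Hs343T and 1 rose in Hs606T, beside 18.8% and 0.903% of all genes, and none passed in both. That 1 call was lost without either Hs343T siRECK array or any one Hs606T array.

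Counts of other lists are given beside 12.6% of all genes higher and 18.8% lower in Hs343T, and 0.903% higher and 0.577% lower in Hs606T. Of 27 genes of the ATF4 and unfolded protein response, 17 fell and 2 rose there and 3 fell in Hs606T. SLC7A11, the cystine transporter, fell by 2.76 and 0.56 and DDIT4, an inhibitor of mTOR signalling, by 1.97 and 0.52. Both Hs606T calls were lost without any one Hs606T array (adjusted p up to 0.118 and 0.24), that of DDIT4 also without any one Hs343T array. The other SLC7A11 probe sets fell in Hs343T and did not pass in Hs606T (adjusted p = 0.0829 and 0.0791). Of 23 death receptor and caspase genes, 13 rose and 2 fell in Hs343T and 1 fell in Hs606T, a call lost without any one of the 8 arrays. TNFSF10, the death ligand TRAIL, rose by 7.29 in Hs343T and gave 0.55 in Hs606T (adjusted p = 0.28). IDO1, which starts the breakdown of tryptophan, rose by 6.32 in Hs343T and gave 0.03 in Hs606T (adjusted p = 0.937). Of 24 JAK and STAT3 pathway genes, 13 rose in Hs343T and 1, IL6, fell in Hs606T. Of 43 collagen and matrix genes, 7 rose and 6 fell in Hs343T and none passed in Hs606T. The Hs343T share is near that of all genes (31.4%). The Hs343T counts were 4 and 4 without Hs343T siSCR 1, siSCR 2 or siRECK 1, and 5 and 4 without siRECK 2. Of 22 AP-1 and immediate early genes, 14 rose and 1 fell in Hs343T and 2 fell in Hs606T, where the count was 1 without any one Hs343T array and 0 without Hs606T siSCR 1, siSCR 2 or siRECK 1.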
